A study of Mus musculus with 36 samples.

Results

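The genes for the proteins of the cytosolic ribosome were followed through the open chromatin at their promoters. Protein-coding mouse genes of the GENCODE M39 annotation (GRCm39) whose symbol is Rpl or Rps followed by a number, or Rplp0, Rplp1, Rplp2 or Rpsa, were taken, without the Rps6k kinases. Of 93 such genes, 81 had at least 1 peak whose midpoint lay within 1000 bp of an annotated transcription start, and these 92 peaks were 0.129% of the 71509 consensus peaks and 0.612% of the 15037 peaks that lie as close to a start of any protein-coding gene (promoter peaks). The rule used gene names and positions only.

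The assay was ATAC-seq, in which a transposase cuts accessible DNA and the reads in a peak measure how open that DNA is. CD4+ T cells were compared between mice lacking HP1α or HP1γ, chromatin proteins that bind methylated histone H3 in heterochromatin, and their wild-type (WT) littermates, on a mixed 129/Sv and C57BL/6 background. The HP1α KO came from floxed Hp1a mice crossed with CMV-cre, so that every tissue lacked it, and the HP1γ KO from floxed Hp1g mice carrying Cd4-cre, which deletes the gene in T cells, with floxed littermates without Cre as controls. Donors were 6 to 12 weeks old. Each line and genotype gave 3 groups of 3 libraries, 12 groups and 36 libraries in all. Naive cells were CD4+ T cells isolated from the spleen by negative selection. Tconv were such naive cells given with marrow of C57BL/6 J (B6) and B6D2F1 mice, depleted of T and NK cells, to lethally irradiated hosts, C57BL/6 J or CD45.1+ B6, and sorted from the spleen as TCR Vβ6+ cells 3 weeks after the graft. Tconv with Treg came from hosts that also received WT regulatory T cells expanded ex vivo. The labels do not say whether replicates came from separate animals, so p-values measure the spread between these libraries, which may be technical.

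Cytosolic ribosomes are built of a small 40S and a large 60S subunit, and every growing cell transcribes the genes of both at a high rate. Many of these genes start within a run of pyrimidines, the source of the 5′ terminal oligopyrimidine tract through which mTOR signalling controls translation of their mRNAs. T cells raise ribosome production when they leave quiescence, and such promoters are otherwise used as examples of constitutively open chromatin.

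The start sites of 7 genes are shown because the results turn on them or because they hold the contrast between a long pyrimidine run and none. Each sequence runs from 60 bases before to 25 bases from the annotated start on, 5′ to 3′ on the gene's strand, as read from GRCm39, with the longest pyrimidine run of at least 8 bases in capitals. Rps2, of the mRNA entry side of the 40S subunit, is at chr17:24939022-24939106 (plus strand), and Rps27a, which encodes a fusion of ubiquitin and a 40S protein, at chr11:29497840-29497924 (minus). Rpl15 is at chr14:4198653-4198737 (plus) and Rpl22, a 60S protein needed for T cell development, at chr4:152410090-152410174 (plus). Rpl3, of the peptidyl transferase centre of the 60S subunit, is at chr15:79967583-79967667 (minus), Rps18, of the 40S head, at chr17:34174627-34174711 (minus), and Rpl9-ps6, whose symbol marks a copy of Rpl9, at chr19:32443954-32444038 (minus).
Rps2: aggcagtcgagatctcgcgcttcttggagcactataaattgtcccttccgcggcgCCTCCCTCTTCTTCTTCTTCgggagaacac
Rpl15: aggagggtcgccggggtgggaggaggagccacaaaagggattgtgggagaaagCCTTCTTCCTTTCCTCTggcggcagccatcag
Rpl22: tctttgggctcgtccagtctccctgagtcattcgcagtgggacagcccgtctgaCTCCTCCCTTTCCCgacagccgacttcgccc
Rps27a: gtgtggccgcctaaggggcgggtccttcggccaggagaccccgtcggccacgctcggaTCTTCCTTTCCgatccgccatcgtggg
Rps18: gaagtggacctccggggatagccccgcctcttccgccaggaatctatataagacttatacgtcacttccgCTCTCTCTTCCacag
Rpl9-ps6: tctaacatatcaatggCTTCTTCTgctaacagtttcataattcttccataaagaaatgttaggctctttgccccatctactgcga
Rpl3: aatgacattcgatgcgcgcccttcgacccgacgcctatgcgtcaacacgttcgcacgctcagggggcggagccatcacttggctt
The Rps2 run was 20 bases long and spanned its start, and those of Rpl15, Rpl22 and Rps27a did so with 17, 14 and 11 bases. The Rps18 run of 11 bases lay wholly inside the transcript, the Rpl9-ps6 run of 8 bases lay upstream, and the longest run in the Rpl3 window had 6 bases. The genes shown are examples and do not give the share of members whose run spans the start.

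Among the 76 genes of the 60S and 40S lists with a peak, the longest pyrimidine run within 100 bases of the start had a median of 11 bases, against 8 for the 12838 protein-coding promoters with a peak. A run of at least 10 pyrimidines stood at 49 of the 76 (64.5%), at 30.5% of all these promoters, and at 20 of 76 promoters (26.3%) of mitochondrial ribosomal protein genes, whose products serve another ribosome. Such a run could lie anywhere in this window and need not span the start, as that of Rps19, which began 87 bases past it. A C stood at the annotated start of 21.1% of the list genes and of 21.8% of all. Runs of at least 10 purines, the same letters on the other strand, stood at 27.6% of the list genes and 31.9% of all. From 250 bases before to 50 after the start, on both strands, the ETS motif CCGGAAG was present at 25 of 81 member promoters (30.9%) against 15.1% of all, but it was as common in mitochondrial ribosomal protein (30.3%) and proteasome promoters (33.3%). TATAAA stood at 13.6% against 8.08%, the NFY motif CCAAT at 25.9% against 39.2% and the SP1 motif GGGCGG at 51.9% against 58.1%. These matches describe letters and were not set against binding data.

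The 77 listed subunit genes, 46 of 60S and 31 of 40S, were covered except for Rps25, a 40S gene whose nearest peak midpoint lay 4968 bp away. Of 16 genes that fit the name rule only, 5 had a peak, namely Rpl22l1, Rpl36al, Rpl7l1, Rps27l and Rpl9-ps6. The other 11 without a peak were Rpl10-ps3, Rpl10l, Rpl27rt, Rpl35rt, Rpl39l, Rpl3l, Rps18-ps6, Rps19bp1, Rps23rg1, Rps27rt and Rps4l. Most of these are copies, paralogs or retrogenes, and Rps19bp1 is a binding partner and not a ribosomal protein. A single peak served 71 genes, 9 had 2 and Rpl18 had 3. The peak with the most reads, the leading peak of a gene, held a start site in 80 of 81 genes, the exception being the 230 bp peak upstream of Rpl9-ps6. Another protein-coding gene had its start within reach of 24 of the 92 peaks, so that the opening of 2 promoters was read in 1 value there.

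Library depth ran from 1.49 to 96.8 M reads in peaks with a median of 54.8 M, and 28 of 36 libraries had at least 20 M (M, mega). The study left out 3 HP1α libraries for poor quality, WT Tconv with Treg R3 and KO Tconv with Treg R2 and R3, and the same was done here, with all 18 given beside. That leaves a single KO library (R1, 50.7 M reads) against WT libraries of 12.7 and 1.49 M, and the lone library was assumed to vary like the other groups. T cell marker genes, 5 of 7 with a peak, summed to 92.4 to 149 CPM per kb in the naive and Tconv libraries and in HP1γ Tconv with Treg, to 64.1 to 111 in HP1α KO Tconv with Treg and to 50.9 to 75.6 in HP1α WT Tconv with Treg. Pax5, the only one of 4 B cell markers with a peak, stood at 12.1 to 15.6 CPM per kb in those WT libraries and at 4.14 to 5.72 in HP1α WT Tconv. Cd8b1 stood at 19.8 to 24.1 in naive libraries and at 1.79 to 7.06 in the transferred cells, neither of 2 NK cell markers had a peak, and 2 of 4 myeloid and 2 of 3 erythroid markers had one. The peaks near Cbx5 (HP1α, 2 peaks) and Cbx3 (HP1γ, 1 peak) differed between genotypes by log2 fold changes of -0.11 to 0.13 and 0.02 to 0.11 with 0 called, so they did not check the genotype labels. In bulk samples, fewer cells with an open promoter and less signal per cell cannot be told apart.

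Ribosomal protein promoters were open in every group, more than promoters in general. Leading peaks had a median of 21.5 CPM per kb of peak (counts scaled to library total and peak length; interquartile range 17.3 to 28.2), against 14.0 for all promoter peaks and 4.79 for all peaks, and 92.6% of them lay above the promoter median. Leading peaks were picked for their reads, and of all 92 member peaks 84.8% lay above it, with 27.3% of the 11 that were not leading. Only 9 of 81 lay above percentile 90 of promoter peaks. The highest were Rps19, the 40S gene most often mutated in Diamond-Blackfan anaemia, at 45.5 (SD 10.4 over libraries), the Rpl22 paralog Rpl22l1 at 36.1 and Rpl41, which encodes a very short basic protein, at 35.7. The lowest were Rpl9-ps6 at 2.58 (SD 2.38), the X-linked Rps4x at 11.3 and Rpl36 at 12.5. Both subunits were alike in level, with medians of 22.9 for 60S and 20.2 for 40S leading peaks, and sharing the peak with another gene made little difference (21.0 shared, 21.7 not shared). Other gene groups of growth stood close to them, at 19.9 for mitochondrial ribosomal proteins, 20.6 for the proteasome, 22.5 for ribosome biogenesis and 22.8 for translation factors.

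The peaks varied less across the 12 groups than promoter peaks in general and about as much as the other growth genes. Member peaks also held more reads (median over libraries 5.80 log2 CPM, promoter peaks 4.85), and promoter peaks of like level were not compared. The part of count noise in the spread was not tested. The SD of the group means of log2 CPM had a median of 0.296 over member peaks, 0.358 over promoter peaks and 0.610 over all peaks, and was 0.296 for mitochondrial ribosomal proteins, 0.292 for translation factors, 0.299 for biogenesis and 0.310 for the proteasome. The HP1α groups with Treg set much of it, since 80 of 81 leading peaks were lowest in one of them. Without the 3 left-out libraries the medians were 0.218 over members and 0.295 over promoter peaks, and over the 10 groups without HP1α Tconv with Treg they were 0.145 and 0.239. The steadiest leading peaks over all libraries were Rps21 (0.160), Rpl35 (0.165) and Rps7 (0.183), of which Rps21 and Rps7 belong to the 40S and Rpl35 to the 60S subunit. The most variable were Rpl9-ps6 (1.36), Rps28 (0.474), a small 40S protein near the mRNA exit, and Rpl10 (0.417), which joins the 60S subunit late. Over the 10 groups Rpl9-ps6 remained the most variable (1.47), Rps28 dropped to 0.114 and Rpl10 to 0.187. The steadiest there were Rps26 (0.0686), Rpl34 (0.0747) and Rps21 (0.0797), and Rps7 (0.127) was no longer among them.

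**Figure D1:**
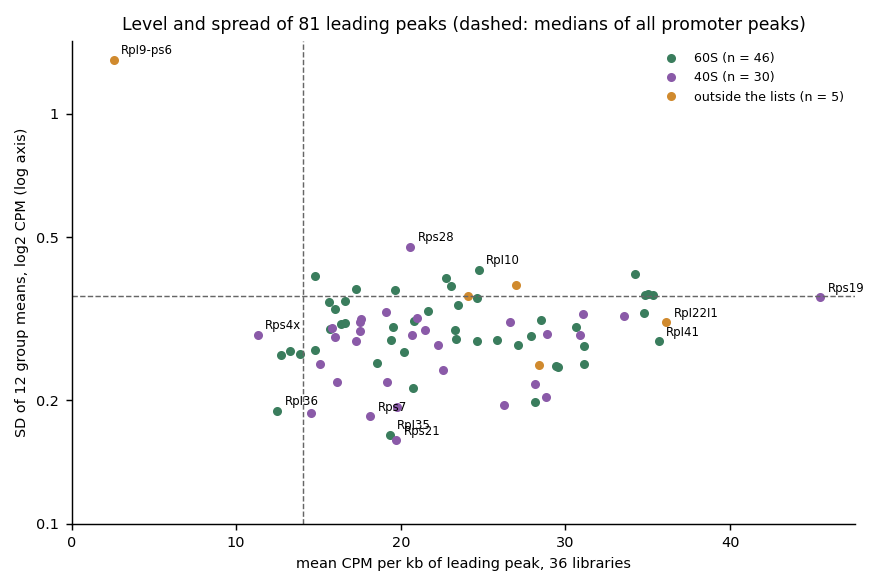
Each of the 81 leading peaks is a point, placed by its mean level over 36 libraries (CPM per kb) and by the SD of the 12 group means of log2 CPM on a log axis, coloured by subunit list. Most points lie to the right of the promoter median of 14.0 and below the median SD of 0.358 (dashed lines), and Rpl9-ps6 alone lies at low level and high spread.

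As a scale, the member peaks took 0.387 to 0.537% of all peak reads, with a median of 0.503%. In the HP1γ line the share was 0.466 to 0.477% in WT naive and 0.461 to 0.481% in KO naive libraries, and 0.502 to 0.509% and 0.501 to 0.528% in the matching Tconv, so the naive and Tconv libraries did not overlap. In the HP1α line the ranges overlapped, with 0.476 to 0.530% in naive and 0.475 to 0.537% in Tconv. The median log2 CPM over member peaks ran from 5.59 to 6.01 in the 28 libraries of at least 20 M reads and from 4.77 to 4.98 in the 3 left-out libraries, with a pooled SD between replicates of 0.116 without these 3 and 0.195 with them. The member median lay 0.678 to 1.17 above the promoter median in every library. Log2 CPM is not divided by peak length, and member peaks were wider (median 2341 bp) than promoter peaks (1779 bp).

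**Figure D2:**
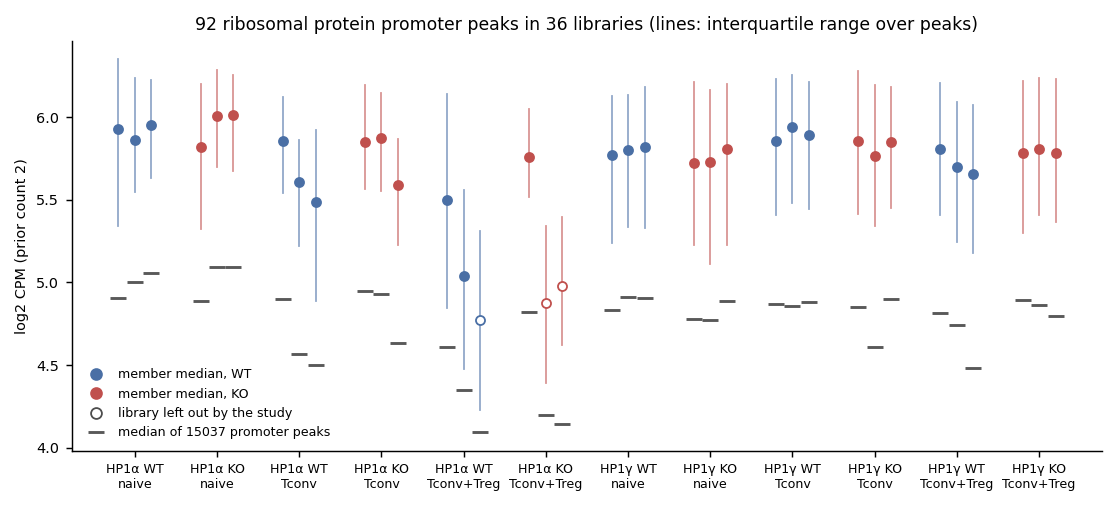
For each library, by group, a point gives the median log2 CPM of the 92 member peaks, the vertical line their interquartile range and the dash the median of 15037 promoter peaks, with WT in blue, KO in red and the left-out libraries hollow. The member median stays above the promoter median in each library and the lowest value of each, 4.77 and 4.09, is that of a left-out HP1α WT library with Treg. Values are not divided by peak length.

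Tconv were first compared with the naive cells they came from, separately in each line and genotype. A peak was called where edgeR's quasi-likelihood test gave a Benjamini-Hochberg adjusted p under 0.05 over all peaks and an absolute log2 fold change over 1, and the count at any fold uses the adjusted p alone. Few member peaks were called although calls were common among all peaks. In HP1α WT 2 of 92 were called against 42.5% of all peaks, in HP1α KO 2 against 42.6%, in HP1γ WT 3 against 46.5% and in HP1γ KO 3 against 43.0%. Among the 81 leading peaks the only call in each comparison was the fall of Rpl9-ps6.

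The second peak of Rps9, a 40S protein of the decoding side, rose in all 4 comparisons. This peak of 1830 bp (chr7:3708661-3710490) lies over the 3′ end of the gene and does not hold a start. In HP1γ WT its log2 CPM was 2.53, 2.46 and 2.22 in naive cells and 3.92, 3.82 and 3.35 in Tconv. In HP1α KO it was 2.53, 2.30 and 2.45 in naive cells and 3.62, 3.78 and 3.50 in Tconv. All Tconv libraries lay above all naive ones in both lines and genotypes. The log2 fold changes were 1.30 (SE 0.17, adjusted p = 2.84e-06) in HP1α WT, 1.28 in HP1α KO (adjusted p = 9.05e-07), 1.40 in HP1γ WT (adjusted p = 5.51e-07) and 1.22 in HP1γ KO (adjusted p = 6.39e-05). The leading Rps9 peak over the start was at 5.72, 5.64 and 5.77 in HP1γ WT naive cells and 5.60, 5.72 and 5.64 in Tconv, where the groups overlap.

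The second peak of Rpl11, a 60S protein that also binds MDM2, behaved alike. It spans chr4:135754951-135756740 and holds an annotated start of the gene at 135756109. That start lies far downstream of the one under the leading peak, at 135780739 on the minus strand. The log2 CPM of this second peak in HP1γ WT was 2.55, 2.89 and 2.83 in naive cells and 3.87, 4.14 and 4.13 in Tconv, which do not overlap. The log2 fold change was 1.35 (SE 0.12, adjusted p = 1.69e-08) in HP1γ WT and 1.31 (adjusted p = 2.84e-07) in HP1γ KO. In the HP1α line it was 0.97 (adjusted p = 0.000547) in WT, where 1 Tconv library at 3.05 fell among the naive libraries, and 0.92 (adjusted p = 0.000258) in KO.

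AP-1 sites (TGACTCA or TGAGTCA), the motif of the Fos and Jun factors that T cell activation induces, were looked for in both peaks. The second Rps9 peak holds 2, at chr7:3709572-3709600 and chr7:3710237-3710265, and the second Rpl11 peak 1, at chr4:135756243-135756271, shown in this order on the plus strand with the motif in capitals.
Rps9 site a: gtgagcctgctTGAGTCAaagggcaggac
Rps9 site b: gccgagaagctTGAGTCAgacaggaagat
Rpl11 site: cctggaagagaTGACTCAgcagttaagag
The leading peak of Rps9 holds 0 and that of Rpl11 holds 1, and 29.4% of all peaks 1500 to 2100 bp wide hold at least 1, so the letters alone do not set these peaks apart.

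Rpl9-ps6 passed as lower in Tconv in all 4, though not in every library. Its read counts in HP1γ WT were 84, 84 and 95 in naive libraries and 1, 6 and 6 in Tconv, and in HP1α KO 83, 83 and 83 against 7, 9 and 7. In HP1α WT the log2 CPM was -0.10, 0.36 and 0.09 in naive cells and -2.50, 0.11 and -1.62 in Tconv, so that Tconv R2 lay among the naive libraries (10, 24 and 2 reads in Tconv against 41, 111 and 81). The log2 fold changes were -1.58 (SE 0.48, adjusted p = 0.0076) in HP1α WT, -3.10 (adjusted p = 1.54e-05) in HP1α KO, -3.85 (SE 0.45, adjusted p = 2.54e-08) in HP1γ WT and -3.31 (adjusted p = 1.51e-07) in HP1γ KO. The HP1α WT call rests on 1 library: without Tconv R1 the change was -0.21 (adjusted p = 0.75), and DESeq2 gave -1.05 (adjusted p = 0.19).

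**Figure D3:**
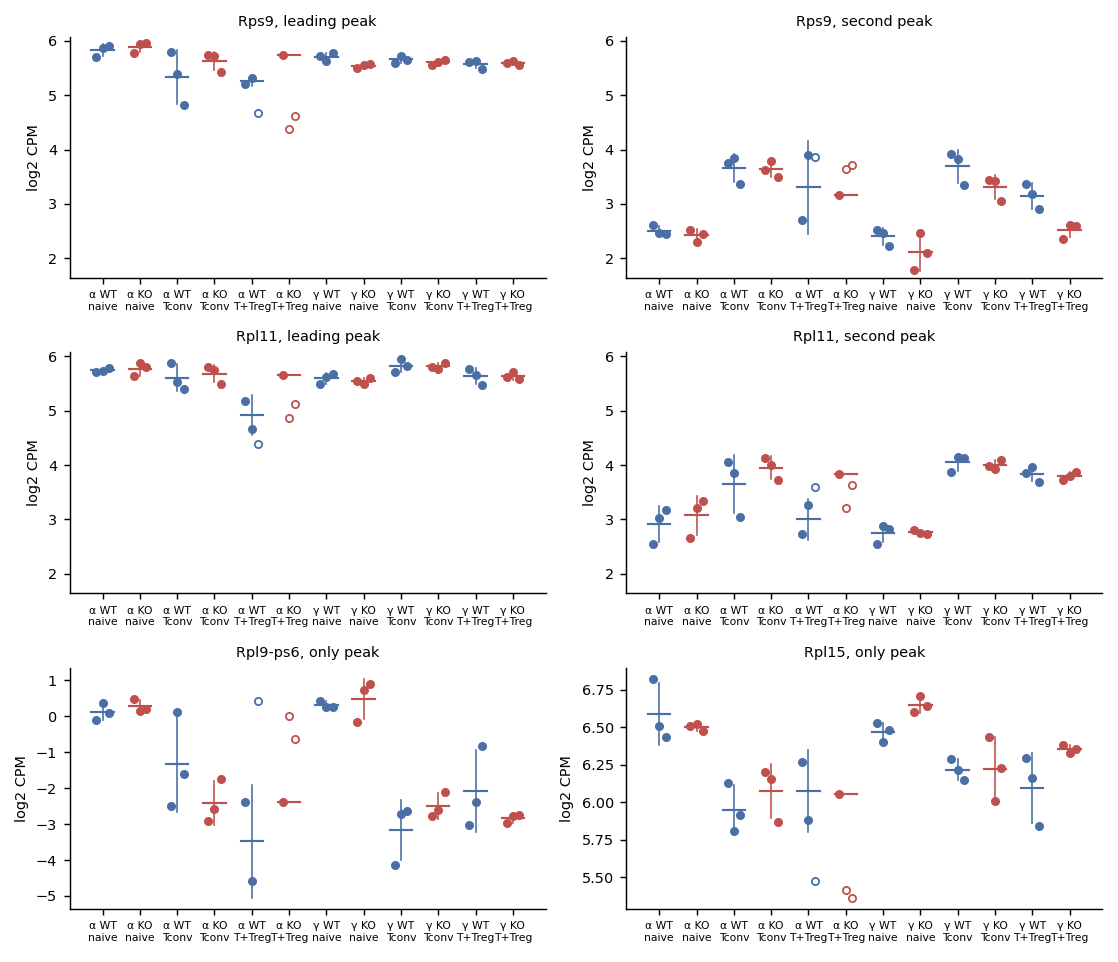
Log2 CPM in each library of the 12 groups is shown for the leading and second peaks of Rps9 and Rpl11 and for the single peaks of Rpl9-ps6 and Rpl15 (α and γ are the HP1 lines, T+Treg is Tconv with Treg, blue is WT, red is KO). Points are libraries, hollow ones left out by the study, and horizontal and vertical lines are the mean and SD of the kept ones. The second peaks of Rps9 and Rpl11 rise from naive cells to Tconv while their leading peaks stay between 4 and 6, and Rpl9-ps6 falls.

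Apart from the called peaks the changes over the 92 peaks were small, and in the HP1α line their prevailing sign changed with the scaling. In HP1γ WT 39 of 92 peaks rose and 2 fell at any fold, where 35.5% of all peaks rose and 32.1% fell. In HP1γ KO 33 rose and 5 fell, against 31.2% and 30.5% of all peaks. In HP1α WT 3 rose and 20 fell (all peaks 30.7% and 30.3%), and in HP1α KO 2 rose and 6 fell (30.2% and 30.9%). Of the 81 leading peaks, 33 rose and 2 fell in HP1γ WT, 28 and 5 in HP1γ KO, 0 and 19 in HP1α WT and 0 and 6 in HP1α KO with this TMM scaling, so that the peaks that rose in the HP1α line were not leading ones. The member medians were 0.17 and 0.14 in HP1γ WT and KO, and -0.19 and -0.12 in HP1α WT and KO with TMM scaling. Those in the HP1α line turn to 0.04 and 0.04 when scaled by library size alone and to 0.12 and 0.08 with loess offsets on abundance. In HP1α WT the split of 3 higher and 20 lower became 10 and 6 under library size and 21 and 3 under the loess offsets, and with all 18 libraries it was 3 and 2. Without a single library the lower count ran from 5 (without WT Tconv R2 or WT naive R1) over 11 (without WT Tconv R3) to 28 (without WT Tconv R1), and the 6 lower peaks of HP1α KO became 1 to 3 without any 1 library. In HP1α KO the split of 2 and 6 became 8 and 3 under library size and 12 and 3 under the loess offsets. It was 2 and 13 with only the groups compared. The split in HP1γ WT was 29 and 6 under library size and 24 and 9 under the loess offsets, and in HP1γ KO 37 and 5 and 34 and 7, so more members were higher than lower under each of these. Without WT naive R1, R2 or R3 the 39 higher peaks of HP1γ WT became 22, 24 and 25, and without KO naive R2 or R3 the 33 of HP1γ KO became 22. The promoter median shifted along with the members, from -0.25 to -0.03 and 0.01 in HP1α WT. The member median stood 0.06 to 0.11 above it under these 3 scalings, and the median of all peaks moved from -0.03 to 0.17 under library size.

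Among the leading peaks of the HP1γ line, Rpl7a of the 60S subunit rose by 0.61 in WT (SE 0.07, adjusted p = 6.02e-07) and 0.54 in KO (adjusted p = 8.43e-06) on the log2 scale. Rps15a of the 40S subunit rose by 0.46 in both (adjusted p = 1.93e-05 in WT and 5.76e-05 in KO), Rpsa, a 40S protein also known as the laminin receptor, by 0.41 in WT (adjusted p = 1.16e-05) and Rpl41 by 0.46 in KO (adjusted p = 1.78e-05). These passed the adjusted p under all 5 other scalings tried. Lower in Tconv were Rpl9 in WT (-0.21, adjusted p = 0.036) and Rpl15, Rpl37 and Rps27a in KO (-0.36, -0.27 and -0.22, adjusted p = 0.0072, 0.0078 and 0.032), of which Rpl37 shares its peak with Card6. Rpl9 did not pass with GC offsets (adjusted p = 0.12), depth as a covariate (0.054 as adjusted p), the replicate block (0.063) or without WT Tconv R1 (0.094) or R2 (0.057). Rps27a did not pass with GC offsets (adjusted p = 0.15) or without KO Tconv R2 (0.13) or KO naive R2 (0.12) or R3 (0.071), while Rpl15 and Rpl37 passed under each of these alternatives.

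Rpl15 of the 60S subunit, whose peak is shared with Nkiras1, was lower in Tconv of both lines. In HP1α WT its log2 CPM was 6.82, 6.51 and 6.44 in naive cells and 6.13, 5.81 and 5.91 in Tconv, and in HP1γ KO 6.60, 6.71 and 6.64 against 6.43, 6.01 and 6.23. The groups did not overlap in either. It fell by 0.57 in HP1α WT (adjusted p = 0.0021), 0.37 in HP1α KO (adjusted p = 0.022) and 0.36 in HP1γ KO, while HP1γ WT gave -0.19 (adjusted p = 0.12). Rpl37 and Rpl36a were also lower in 3 of 4 comparisons, and the second Rps4x peak was higher in 3 of 4. Other HP1α WT members that fell were Rps20 (-0.46, adjusted p = 0.0054), Rpl10 (-0.52, adjusted p = 0.0056) and Rpl37 (-0.52, adjusted p = 0.0092), and in HP1α KO Rps20 (-0.37, adjusted p = 0.012) and Rps3a1 (-0.31, adjusted p = 0.029). In HP1α KO, Rpl15, Rps20 and Rps3a1 did not pass by DESeq2 (adjusted p = 0.12, 0.081 and 0.18), with GC offsets (0.11, 0.065 and 0.11 as adjusted p), with all 18 libraries (0.24, 0.22 and 0.36) and without KO Tconv R2 or R3 or KO naive R1, at fold changes that stayed below zero. In HP1α WT, Rps20, Rpl10 and Rpl37 did not pass with all 18 libraries (adjusted p = 0.077, 0.074 and 0.097) and Rps20 and Rpl37 with abundance offsets (adjusted p = 0.15 and 0.060), while Rpl15 passed under each alternative.

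Other growth genes were counted by the same rule. In HP1γ WT 18 of 85 promoter peaks of mitochondrial ribosomal proteins rose and 4 fell, with Mrps24 at 3.47 and Mrpl33 at 0.96 on the log2 scale. Proteasome peaks rose in 19 of 38 with 0 falling, translation factor peaks in 18 of 37 with 0 falling and biogenesis peaks in 12 of 38 with 4 falling. In HP1α WT the same lists gave 5 up and 23 down, 1 and 6, 1 and 11, and 2 and 10. With TMM scaling these lists thus leaned up in HP1γ WT and down in HP1α WT, as the ribosomal proteins did. Over 80 leading peaks without Rpl9-ps6, the activation changes of the 2 lines had a Pearson r of 0.76 in WT and 0.83 in KO, against 0.93 and 0.91 over all promoter peaks, which is a description across peaks of shared libraries and has no p.

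KO and WT were next compared within each cell state. In naive cells and Tconv no member peak passed at any fold in either line. The exceptions among the alternatives were 5 higher in HP1γ naive cells when only the groups compared were fitted (Rps23, Rps12, Rps27a, Rpl15 and Rpl37, with log2 fold changes of 0.17 to 0.29), and the second Rps9 peak lower in HP1γ Tconv without WT Tconv R3 (-0.58, adjusted p = 0.028). Of the 92, 0 were called in HP1α naive cells (0.00559% of all peaks), HP1α Tconv (0.0210%), HP1γ naive cells (0.140%) and HP1γ Tconv (3.35%), by edgeR and by DESeq2. An unadjusted p under 0.05 was found for 0, 0, 6 and 1 of them, against 1.17%, 4.82%, 8.98% and 19.6% of all peaks. The median log2 fold changes were 0.01, 0.10, 0.00 and -0.03, beside promoter medians of 0.00, 0.08, 0.02 and -0.02. The HP1α Tconv median was -0.01 with abundance offsets and 0.25 without WT Tconv R1.

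Members among the 3 smallest p values of each comparison did not pass either. In HP1γ naive cells Rps23 gave 0.31 (adjusted p = 0.32) and Rps12 0.26 (adjusted p = 0.36), both of the 40S subunit, and in HP1γ Tconv Rps12 gave 0.18 (adjusted p = 0.30) and the second Rps9 peak -0.42 (adjusted p = 0.15). In HP1α naive cells Rpl7l1 gave 0.20 and Rps23 -0.17, and in HP1α Tconv Rpl10a gave 0.26 and Rpl9-ps6 -1.42 (SE 0.77), all with an adjusted p of 1 after rounding.

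**Figure D4:**
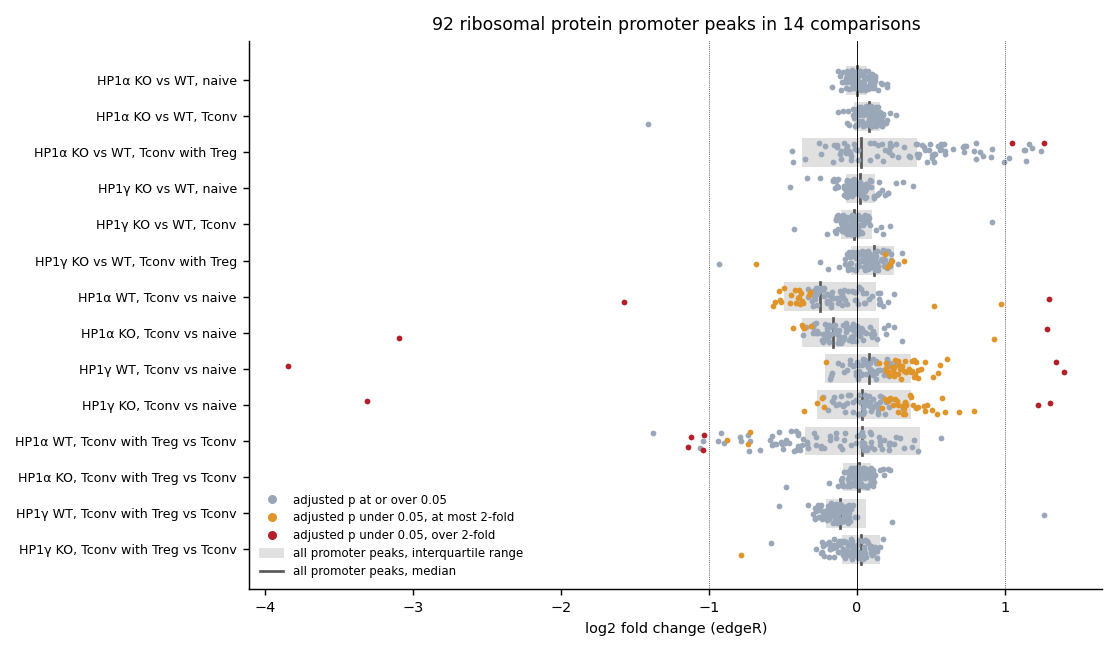
Each point is a member peak, placed by its edgeR log2 fold change in 1 of 14 comparisons with TMM scaling (α, γ and KO, WT as named), red where called, orange where only the adjusted p passed. Grey boxes and bars are the interquartile range and median of all promoter peaks. The points cluster within 0.5 of zero in most rows, and the sides on which the orange points lie in the HP1α rows of Tconv against naive cells change with the scaling.

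With Treg present, the HP1α comparison gave a few calls, all in leading peaks of a spread set of genes. Between KO and WT 2 of 92 were called, both higher in KO, against 1.63% of all peaks (0.245% higher at any fold), and 31 had an unadjusted p under 0.05 (16.3% of all peaks did, and 20.4% of promoter peaks). Between Tconv with and without Treg in WT 4 were called, all lower with Treg, against 6.77% of all peaks, and at any fold 7 were lower (2.35% of all peaks). That number was 20 by DESeq2 (7.02% of all peaks), 14 under library size, 13 (with 3 higher) with abundance offsets, 11 with the earlier edgeR fit or without WT Tconv R3, 4 with all 18 libraries, 2 with GC offsets, depth as a covariate, only the groups compared or without WT Tconv R1, and 0 without WT Tconv with Treg R1. In KO 0 of 92 were called (0.548% of all peaks), by edgeR and DESeq2, with 1 at an unadjusted p under 0.05 (8.54% of all peaks). DESeq2 called 11 in KO against WT, where it called 3.68% of all peaks.

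The Rpl3 leading peak, 5100 bp wide (chr15:79963951-79969050), had the clearest change. Its log2 CPM was 5.27 and 4.68 in WT Tconv with Treg, 6.43, 6.40 and 5.95 in WT Tconv, 6.44 in the single kept KO library with Treg and 6.45, 6.46 and 6.28 in KO Tconv. The WT libraries with Treg stood below all others, and the left-out WT (5.04) and KO libraries (5.50 and 6.04) kept that order. These WT values rest on 513 and 48 reads and the KO value on 4609. KO exceeded WT by 1.26 (SE 0.24, adjusted p = 0.012), and with all 18 libraries by 1.03 (SE 0.28, adjusted p = 0.095). In WT the peak was lower with Treg by a log2 fold change of -1.14 (SE 0.21, adjusted p = 0.0034; all 18 libraries -1.19, adjusted p = 0.0090), and in KO it differed by 0.05 (95% interval -0.30 to 0.40). With all 18 libraries the KO difference was -0.28 (95% interval -0.66 to 0.10), so its size rests on which KO libraries are used. Without WT Tconv with Treg R1 neither call held, although the fold changes were 1.82 and -1.68 (adjusted p = 0.97 for both). With log2 depth as a covariate the KO against WT difference was 0.98 (adjusted p = 0.13) and the Treg difference in WT -0.96 (adjusted p = 0.010), so that neither was called, and with only the groups compared the first was 1.43 (adjusted p = 0.25).

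The Rps18 leading peak, shared with Vps52 (chr17:34172861-34175590), followed the same order. It stood at 4.86 and 4.74 in WT Tconv with Treg, at 5.99, 5.89 and 5.63 in WT Tconv, and at 5.89 in KO Tconv with Treg. The left-out libraries were at 4.57 in WT and at 5.11 and 5.56 in KO, again without overlap. The fold changes were 1.05 for KO against WT (SE 0.26, adjusted p = 0.048; all 18 libraries 0.91, adjusted p = 0.14) and -1.04 for Treg in WT (SE 0.23, adjusted p = 0.010; all 18 libraries -1.12, adjusted p = 0.011). In KO the Treg difference was 0.01 (95% interval -0.36 to 0.37), and with all 18 libraries -0.26 (95% interval -0.62 to 0.10). The KO against WT call was lost without WT R1 (1.21, adjusted p = 0.97) or R2 (1.13, adjusted p = 0.089) with Treg, under library size (1.01, adjusted p = 0.051) and with abundance (0.87, adjusted p = 0.067) or GC offsets (1.12, adjusted p = 0.10). It was also lost with depth as a covariate (0.80, adjusted p = 0.32), with only the groups compared (1.15, adjusted p = 0.25) and under the earlier edgeR fit (1.07, adjusted p = 0.057), and the Treg difference in WT fell short on the fold with depth (-0.87) and with abundance offsets (-0.97).

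Rpl4, a 60S protein of the exit tunnel whose peak is shared with Zwilch, was at 4.56 and 4.93 in WT Tconv with Treg against 6.02, 5.64 and 5.23 in WT Tconv. Rps28, shared with Ndufa7, was at 4.16 and 2.91 against 5.28, 4.98 and 4.51. Neither pair of groups overlapped. Rpl4 fell by 1.12 (SE 0.30, adjusted p = 0.030; all 18 libraries -1.31, adjusted p = 0.032) and Rps28 by 1.04 (SE 0.30, adjusted p = 0.039; past 0.05 with all 18). Lower at any fold were also Rps2 (-0.72, adjusted p = 0.019), the second Rps18 peak (-0.88, adjusted p = 0.038) and Rpl7a (-0.74, adjusted p = 0.045). Between KO and WT, Rpl4 (1.24, adjusted p = 0.069), Rps28 (1.18, adjusted p = 0.073) and Rps2 (0.80, adjusted p = 0.057) did not pass, and the smallest p below zero was that of Rps23 (-0.44, adjusted p = 0.49). Without WT Tconv R1, Rpl4 (-0.89, adjusted p = 0.13) and Rps28 (-0.85, adjusted p = 0.17) lost the call and Rps18 fell short on the fold only (-0.98, adjusted p = 0.044). Without WT Tconv with Treg R1 all 4 were lost at fold changes of -1.68 for Rpl3, -1.19 for Rps18, -0.87 for Rpl4 and -2.21 for Rps28 (adjusted p = 0.97 for each), and without R2 Rps28 was lost (-1.02, adjusted p = 0.079). Rpl4 and Rps28 did not pass with depth as a covariate (-0.79 and -0.70, adjusted p = 0.12 and 0.13), with GC offsets (adjusted p = 0.091 and 0.099) or with only the groups compared (adjusted p = 0.079 and 0.10). Short on the fold only were Rps28 with abundance offsets (-0.90) and Rpl4 by DESeq2 (-0.98) and the earlier edgeR fit (-0.96).

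**Figure D5:**
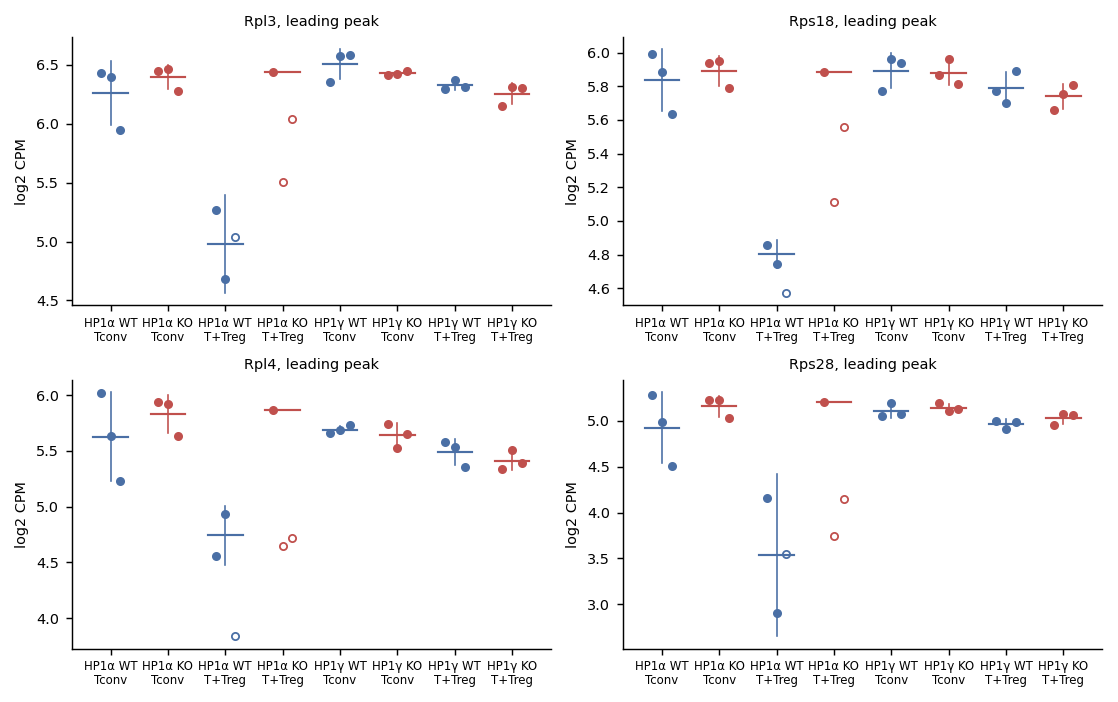
Log2 CPM of the leading peaks of Rpl3, Rps18, Rpl4 and Rps28 is shown in Tconv and Tconv with Treg (T+Treg) of both lines, WT in blue and KO in red. Points are libraries, hollow ones left out by the study, and lines give the mean and SD of the kept ones, with a single kept library in HP1α KO T+Treg. HP1α WT T+Treg lies lowest in Rpl3 and Rps18, and the HP1γ groups lie close together, between 6.15 and 6.37 for Rpl3 with Treg.

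Over all 92 peaks, KO exceeded WT by a median of 0.38 in Tconv with Treg against 0.03 for promoter peaks, and 68 were above zero. The median was 0.06 with log2 depth as a covariate, 0.50 by DESeq2, 0.77 without WT Tconv with Treg R1 and 0.22 with all 18 libraries, in which 0 members were called (0.741% of all peaks; 16 at an unadjusted p under 0.05, as 11.5% of all peaks). In WT the Treg median was -0.28 against 0.03 for promoter peaks, and with depth as a covariate it was -0.03. It was -0.61 without WT Tconv with Treg R1 and -0.14 without WT Tconv R1. Mitochondrial ribosomal protein and proteasome peaks had the same KO against WT median of 0.37, translation factors 0.31 and biogenesis 0.11. The WT libraries with Treg were shallower than the kept KO library (12.7 and 1.49 M against 50.7 M reads) and had the highest Pax5 level and low T cell marker sums, and the part of these markers in the member values was not tested. The genotype by Treg interaction itself had a median of 0.31 with 0 called by edgeR (0.0461% of all peaks; 15 at an unadjusted p under 0.05, as 10.3% of all peaks), and gave 1.19 for Rpl3 (SE 0.28, adjusted p = 0.14) and 1.05 for Rps18 (adjusted p = 0.22).

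In the HP1γ line the same peaks gave small differences between KO and WT Tconv with Treg, and none passed the test. Rpl3 was at 6.30, 6.37 and 6.31 in WT and 6.15, 6.31 and 6.30 in KO, a log2 fold change of -0.06 (95% interval -0.22 to 0.10), and Rps18 gave -0.03 (95% interval -0.20 to 0.14). Of the 92 peaks, 0 were called between KO and WT (11.9% of all peaks), by edgeR and DESeq2. An unadjusted p under 0.05 was found for 12 of them (35.8% of all peaks and 30.6% of promoter peaks). At any fold 5 were higher (11.6% of all peaks) and 1 lower (8.92%). The number of higher members was 10 by DESeq2 (13.5% of all peaks) and with GC offsets, 2 with depth as a covariate, 1 under library size or abundance offsets, and 0, with 0 lower, when only the groups compared were fitted.

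Rps27a had the smallest p of these. Its log2 CPM was 6.23, 5.94 and 6.04 in WT and 6.38, 6.40 and 6.38 in KO Tconv with Treg, without overlap. KO exceeded WT by 0.31 (SE 0.09, adjusted p = 0.018). Pax5 stood at 7.52 to 9.98 CPM per kb in these KO libraries and at 3.67 to 7.66 in WT, and its part in the member values was not tested. The others were Rpl27a (0.23, adjusted p = 0.024), Rps7 (0.22, adjusted p = 0.049), Rpl41 (0.20, adjusted p = 0.049) and the Rpl36a paralog Rpl36al (0.19, adjusted p = 0.046, shared with Mgat2), and these 4 did not pass under library size or abundance offsets. Rps27a passed under library size (0.21, adjusted p = 0.045) and not with abundance offsets. There the second Rpl24 peak was the 1 higher member (0.43, adjusted p = 0.037). With a replicate block, which the paired deviations in this comparison call for, Rpl36al (adjusted p = 0.051) and Rps7 (adjusted p = 0.065) no longer passed, and Rpl7 did (0.24, adjusted p = 0.039), so that 4 members were higher. Without WT R2 or KO R1 with Treg 0 of the 5 passed (Rps27a 0.23, adjusted p = 0.094, and 0.33, adjusted p = 0.052), without KO R2 1 member was higher, without KO R3 or WT R3 2, and without WT R1 12. The member median was 0.08 beside a promoter median of 0.12, and it turned to -0.02 under library size and -0.01 with abundance offsets.

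The second Rps9 peak was the member that was lower in HP1γ KO. With Treg it was at 3.37, 3.18 and 2.90 in WT and at 2.36, 2.62 and 2.60 in KO. The groups did not overlap, and the KO libraries with Treg came close to the naive range of 1.78 to 2.53 in that line. The change was -0.68 between KO and WT (SE 0.21, adjusted p = 0.026) and -0.79 between KO Tconv with and without Treg (SE 0.19, adjusted p = 0.011). In WT the Treg difference was -0.53 (adjusted p = 0.14). Without KO R1 with Treg neither difference passed (-0.58, adjusted p = 0.12, and -0.69, adjusted p = 0.081), the first also did not pass without WT R1 or R2 with Treg (-0.54, adjusted p = 0.12, and -0.72, adjusted p = 0.075) and the other without KO Tconv R1 (-0.69, adjusted p = 0.054), and both when only the groups compared were fitted (adjusted p = 0.079 and 0.096). With GC offsets the difference between KO and WT was -0.56 (adjusted p = 0.064).

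Between Tconv with and without Treg, the other members of the HP1γ line did not pass edgeR's test with TMM scaling and all libraries, while DESeq2 gave 7 lower members at any fold in WT (1.68% of all peaks). Of 92 peaks, 0 were called in WT (0.137% of all peaks; 20 at an unadjusted p under 0.05, as 20.3% of all peaks; median -0.14 beside -0.12 for promoters) and 0 in KO (8.15% of all peaks; 5 at an unadjusted p under 0.05, as 27.2% of all peaks; median -0.03 beside 0.03), by edgeR and DESeq2. At any fold, the second Rps9 peak was the 1 member lower in KO, where 4.74% of all peaks were. Rpl4 was also lower in KO under library size (-0.27, adjusted p = 0.024), abundance offsets, depth as a covariate and without KO R2 of either group, and 0 members passed when only the groups compared were fitted. The WT median turned to -0.01 under library size and 0.02 with abundance offsets. The nearest to a call were Rpl36al (-0.23) and Rpl7 (-0.28) in WT, both with an adjusted p of 0.10, and Rpl4 in KO (-0.24, adjusted p = 0.091). The interaction had a median of 0.09 with 0 called (0.00140% of all peaks; 5 at an unadjusted p under 0.05, as 12.8% of all peaks), with Rpl36al at 0.28 (adjusted p = 0.31) and Rpl7 at 0.28 (adjusted p = 0.34).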

How the data were processed

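ATAC-seq counts were deposited as a matrix of 71512 consensus intervals by 36 libraries. Per the methods and the labels, the authors trimmed paired reads (Trim Galore 0.6.7), aligned them to GRCm39 with BWA, removed duplicates, called peaks per sample with HMMRATAC, merged them and counted reads with featureCounts 2.0.3, allowing a read to count in more than 1 interval. Sequencing depth therefore enters both the peak list and the counts. No other normalization had been applied by the authors to the deposited counts.

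Intervals of no width (3) were left out. Each line was fitted on its own with edgeR 4.0.16 (R 4.3.3) in 1 quasi-likelihood model over its groups, with TMM scaling, filterByExpr, two-sided tests and Benjamini-Hochberg adjustment over all peaks tested (71509 for HP1α, 71508 for HP1γ). The HP1α fit used 15 of 18 libraries. The SE is the fold change divided by the square root of F, and 95% intervals are 1.96 SE. Log2 CPM used a prior count of 2 and 1 TMM scaling over 36 libraries. Depth ran from 1.49 to 96.8 M reads (M, mega) per library. Intervals and tests cover the spread between libraries and not the preparation of cells.

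Alternatives were library size alone, loess offsets on abundance or GC content (span 0.3), log2 depth as a covariate, no filter, DESeq2 1.42.0, a replicate block, only the groups compared, all 18 HP1α libraries, other member definitions and leaving out each library. The quasi-likelihood fit of earlier edgeR releases, the members without Rpl9-ps6 and the spread over groups without the left-out libraries or the HP1α groups with Treg were added after seeing the data. Same-numbered libraries deviated together (r of at least 0.1 in all 3 pairs) in HP1α KO against WT naive cells (0.25 to 0.50), HP1γ KO against WT Tconv with Treg (0.15 to 0.32) and HP1γ WT Tconv with and without Treg (0.20 to 0.29), where the numbers were taken to pair them. Simulated counts with 200 peaks changed by a log2 fold of 2 were recovered to 100% in HP1γ Tconv, 98.5% in HP1α naive cells and 28% in HP1α Tconv with Treg, where 1 library was set against 2. All simulated peaks had the same dispersion, and only peaks with many reads were changed. The first 2 runs gave 12 and 14 false calls, and smaller changes were not simulated.

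The members and lists were chosen with earlier results of these data known. Named were all called members where at most 8 were called, otherwise the 4 with the smallest p in each direction, the 2 nearest to a call on each side where fewer than 4 were called, the 3 highest and lowest by level and by spread over groups, every gene without a peak and every match outside the subunit lists. Rps2, Rpl22 and Rpl15 sequences, the Rps2 values and the peaks named for 3 of 4 activation comparisons were chosen after their values were seen.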

Additional observations from a re-analysis of the deposited data

How the results depend on the processing

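Over 46 settings, 247 of 265 recomputed medians stayed within the pooled SD between kept replicates (0.116) of the reported ones and 235 of 265 counts of called members within 1.5 times. Over 40 settings, 247 of 284 single peak results kept their call, with 0 reversed. The KO against WT median (0.38) was 0.20 with abundance offsets, 0.057 with depth as a covariate, 0.50 by DESeq2, 0.55 with only the groups compared, 0.22 with all 18 libraries, and 0.40 to 0.77 without a single library. Its 2 calls became 1 under library size, abundance or GC offsets, the earlier edgeR fit or unshared peaks, 0 with depth, only the groups compared or all 18, 11 by DESeq2, and 0 to 1 without a library. Between WT Tconv with and without Treg, the 4 calls became 2 with abundance or GC offsets or only the groups compared, 1 in unshared peaks, 0 with depth and 0 to 6 without a library, and the median (-0.28) was -0.027 with depth and -0.61 to -0.14 without a library. In KO that median was -0.35 with all 18. For HP1α KO against WT Tconv the median was 0.032 to 0.25 without a library.

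Between Tconv and naive cells, the HP1α WT median was 0.043 under library size, 0.12 with abundance offsets and -0.069 with depth, and its 2 calls became 1 under the earlier edgeR fit, DESeq2, the subunit lists, leading peaks only or without Rpl9-ps6, and 1 to 3 without a library. The HP1α KO median was 0.044 under library size and 0.077 with abundance offsets, with 1 call in the subunit lists, leading peaks or without Rpl9-ps6. The 3 calls in HP1γ WT and KO became 1 in leading peaks. The HP1γ WT median for Treg was -0.0093 under library size and 0.023 with abundance offsets. The cause was not tested.

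With the replicate block, the 2 calls between HP1α KO and WT Tconv with Treg became 9 (median 0.30), where the numbers were not shown to pair the libraries. At any fold it turned 2 into 16 higher members there and 6 into 12 lower members in HP1α KO Tconv against naive cells. It turned 2 into 1 lower members in HP1γ WT Tconv against naive cells. No other count changed by over 1.5 times.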
